A study of Homo sapiens with 6 samples.

Results

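The vascular endothelial growth factor (VEGF) and platelet-derived growth factor (PDGF) ligands VEGFA, VEGFB, VEGFC, PGF, PDGFA, PDGFB, PDGFC and PDGFD were examined together with the PDGF receptors PDGFRA and PDGFRB in ONS-76 cells, an established human medulloblastoma cell line. A probe set, the group of short probes that measures one transcript region on the array, was taken if the platform annotation mapped it to exactly 1 of these symbols. This gave 23 probe sets of 54613 and 10 genes of 19775. The siKDM1A group was transfected with 10 nM of an siRNA against KDM1A, the histone lysine demethylase also called LSD1, and the control group received the HiPerFect transfection reagent alone. Each group had 3 arrays from separate transfections, with replicates named a, b and c. The sample labels call the target KDM5A with LSD1 beside it and give the harvest as 48 h, whereas the study's text names KDM1A and 72 h. No control siRNA was used, so loss of KDM1A and delivery of an siRNA cannot be told apart in any value given here. The study asked with these arrays which genes respond to loss of KDM1A, and all cells were of 1 line and 1 siRNA. KDM1A itself read 6.25, 6.34 and 6.31 on the log2 scale in the siKDM1A arrays and 9.50, 9.57 and 9.49 in the control arrays, so siKDM1A cells held 10.7% of the control level (limma adjusted p = 7.1e-07), while none of the 5 KDM5A probe sets was called. The brightest KDM5A probe set, 202040_s_at, and the next, 226371_at, nevertheless lay below control in every siKDM1A array. They were at 83.2% and 76.2% of control (limma adjusted p = 0.14 and 0.056), and the other KDM5A probe sets overlapped between the groups.

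VEGF and PDGF ligands are secreted dimers of a shared cystine-knot fold. VEGFA, VEGFB and PGF bind the receptor FLT1, VEGFA also binds KDR, and VEGFC binds FLT4 and KDR. They are best known for driving growth of blood vessels and, for VEGFC, of lymphatic vessels. PDGF ligands act on PDGFRA and PDGFRB, receptor tyrosine kinases of mesenchymal cells, pericytes and glial precursors. PDGFA and PDGFB are cleaved inside the cell, while PDGFC and PDGFD are secreted with a CUB domain that has to be cut off outside it before they bind a receptor.

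The levels of 3 of the 10 genes were higher in siKDM1A cells than in control cells: VEGFA, VEGFC and PDGFD. No gene of the family was lower by the test, and 7 did not pass it. In bulk RNA, fewer cells that express a gene and less RNA of it per cell cannot be told apart. Values are on the log2 scale. The test was limma's moderated comparison, with p adjusted by Benjamini and Hochberg's method across all 54613 probe sets, and a probe set was called at an adjusted p under 0.05. Each gene was represented by its brightest probe set, judged by the mean of the 6 arrays. Among all genes represented in this way 3.45% were called higher and 5.46% lower. Among the 23 probe sets of the family 5 were called higher and none lower, against 2.18% higher and 3.73% lower over all probe sets. An unadjusted limma p under 0.05 was found for 10 of the 23, and for 10265 of all 54613 probe sets. Several of the 10 measure the same gene. The median log2 difference, siKDM1A minus control, was 0.17 over the 23 probe sets and 0.014 over all probe sets. In 10 family probe sets every siKDM1A array lay above every control array and in 2 every siKDM1A array lay below, which was the case for 11.1% and 13.4% of all probe sets. The study's own test, which estimates spread one probe set at a time, called none of the 23 after the same adjustment, with 275 probe sets higher and 401 lower over the whole array. The adjustment was added here to the study's test wherever its adjusted p is given. The paper states none for its gene list, which it limited to changes of at least 3-fold.

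Of the 3 genes that rose, the promoters of VEGFC and PDGFD are shown, so that the DNA in front of them can be read beside their values. Each sequence is the 250 bases before the annotated start, 5′ to 3′ on the strand of the gene, from RefSeq on GRCh38.p14. The VEGFC window is chr4:176792923-176793172 and the PDGFD window is chr11:104164148-104164397, both on the minus strand. Capitals mark the motifs found: GGGCGG (Sp1) or its complement CCGCCC, and the hypoxia response core ACGTG or GCGTG on either strand.
VEGFC: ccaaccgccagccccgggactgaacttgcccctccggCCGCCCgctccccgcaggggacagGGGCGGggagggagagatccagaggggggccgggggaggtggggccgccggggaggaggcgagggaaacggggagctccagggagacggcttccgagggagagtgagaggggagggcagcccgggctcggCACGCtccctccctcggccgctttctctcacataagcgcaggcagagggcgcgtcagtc
PDGFD: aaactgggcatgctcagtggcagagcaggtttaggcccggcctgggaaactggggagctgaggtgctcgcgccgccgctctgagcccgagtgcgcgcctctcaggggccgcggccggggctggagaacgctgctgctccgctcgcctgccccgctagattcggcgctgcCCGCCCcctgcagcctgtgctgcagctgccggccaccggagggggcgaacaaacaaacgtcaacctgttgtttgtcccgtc
The VEGFC window held 2 Sp1 matches, 213 and 189 bases before the start, and 1 hypoxia response core 59 bases before it. The PDGFD window held 1 Sp1 match 81 bases before the start and no hypoxia response core. None of the capitals overlap. Neither window held, on either strand, the AP-1 motif TGANTCA, the box with letters TATAAA or the NF-kB motif. Of 35116 windows of this length over all genes, 42.6% held GGGCGG, 43.2% the hypoxia response core, 6.57% AP-1, 10.7% TATAAA and 8.04% the NF-kB motif. GC content was 74.0% in the VEGFC window and 69.2% in the PDGFD window, against a median of 58.0% over all windows. Windows were matched for 7 of the 10 genes, 12 windows in all, and none was printed for VEGFA, PDGFB or PDGFC. A match of letters shows only that the motif is present in the window.

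VEGFA, the principal growth factor of blood vessel endothelium, lies on chromosome 6 from 43770211 to 43786487 (GRCh38.p14, as for every position given) and was measured by 4 probe sets. The brightest, 210512_s_at, read 10.43, 10.73 and 10.31 in the siKDM1A arrays a, b and c, and 9.88, 9.69 and 9.79 in the control arrays. Every siKDM1A array lay above every control array by more than the spread within either group. Mean levels were 10.49 ± 0.21 in siKDM1A cells and 9.79 ± 0.10 in control cells (SD, n = 3 each), a log2 difference of 0.71 with a standard error of 0.12 and a 95% interval of 0.44 to 0.97. This is 1.63-fold (limma adjusted p = 0.0092).

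The other VEGFA probe sets moved by similar amounts. Probe set 212171_x_at read 8.25, 8.65 and 8.85 in siKDM1A arrays and 7.97, 7.97 and 7.88 in control arrays, 1.56-fold higher (log2 difference 0.64, limma adjusted p = 0.030). Probe set 211527_x_at read 6.58, 7.15 and 6.60 in siKDM1A arrays and 5.91, 6.12 and 6.24 in control arrays (log2 difference 0.69, limma adjusted p = 0.035). Probe set 210513_s_at read 6.82, 7.25 and 6.68 in siKDM1A arrays and 6.24, 6.39 and 6.46 in control arrays, and its difference of 0.55 did not pass (limma adjusted p = 0.057). In all 4 probe sets the siKDM1A arrays lay wholly above the control arrays. Differences within an array between the brightest VEGFA probe set and each of the others overlapped between the groups (exact permutation p from 0.4 to 0.8). The mean of the 4 probe sets was higher by 0.65 (limma adjusted p = 0.0044 over 19775 gene means). Probe sets ending in _x_at can hold probes that match other transcripts, and those ending in _s_at match several transcripts.

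The VEGFA call of 210512_s_at held in each of the 6 fits that left out 1 array (limma adjusted p from 0.010 to 0.047). Among these fits, 212171_x_at passed only without siKDM1A replicate a, and 211527_x_at only without siKDM1A replicate a or c. Probe set 210513_s_at, uncalled in the main fit, passed in 4 of 12 alternatives. These were cyclic loess scaling (limma adjusted p = 0.047), leaving out dim probe sets (0.041), an intensity trend and robust prior (0.037) and leaving out siKDM1A replicate c (0.036). In the study's own test the 4 probe sets had adjusted p from 0.12 to 0.27.

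VEGFC, the lymphatic endothelial growth factor, lies on chromosome 4 from 176683538 to 176792922. Its single probe set, 209946_at, read 9.54, 9.47 and 9.42 in siKDM1A arrays and 8.90, 8.66 and 8.73 in control arrays. The lowest siKDM1A array was above the highest control array, and the spread was small in both groups. Mean levels were 9.48 ± 0.060 in siKDM1A cells and 8.76 ± 0.12 in control cells (SD, n = 3 each), a log2 difference of 0.71 with a standard error of 0.094 and a 95% interval of 0.50 to 0.92. This is 1.64-fold and had the smallest adjusted p in the family (limma adjusted p = 0.0029). It held with any 1 array left out (limma adjusted p from 0.0058 to 0.022), and in the study's own test its adjusted p was 0.056.

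VEGFB and PGF, the ligands of FLT1 that do not bind KDR, gave no call. VEGFB lies on chromosome 11 from 64234584 to 64239264 and PGF on chromosome 14 from 74941830 to 74955764. VEGFB, on 203683_s_at, read 6.02, 6.01 and 6.46 in siKDM1A arrays and 6.37, 6.17 and 6.23 in control arrays. Its groups overlapped, with a log2 difference of -0.093 and a 95% interval of -0.39 to 0.20 (limma adjusted p = 0.77). PGF, placental growth factor, read 8.60, 8.64 and 8.76 in siKDM1A arrays and 8.51, 8.66 and 8.62 in control arrays on 209652_s_at. The log2 difference was 0.069 with a 95% interval of -0.13 to 0.27 (limma adjusted p = 0.75). On the second PGF probe set, 215179_x_at, it was 0.0097, with an interval of -0.25 to 0.27. An increase as large as that of VEGFA or VEGFC lies outside these intervals.

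**Figure D1:**
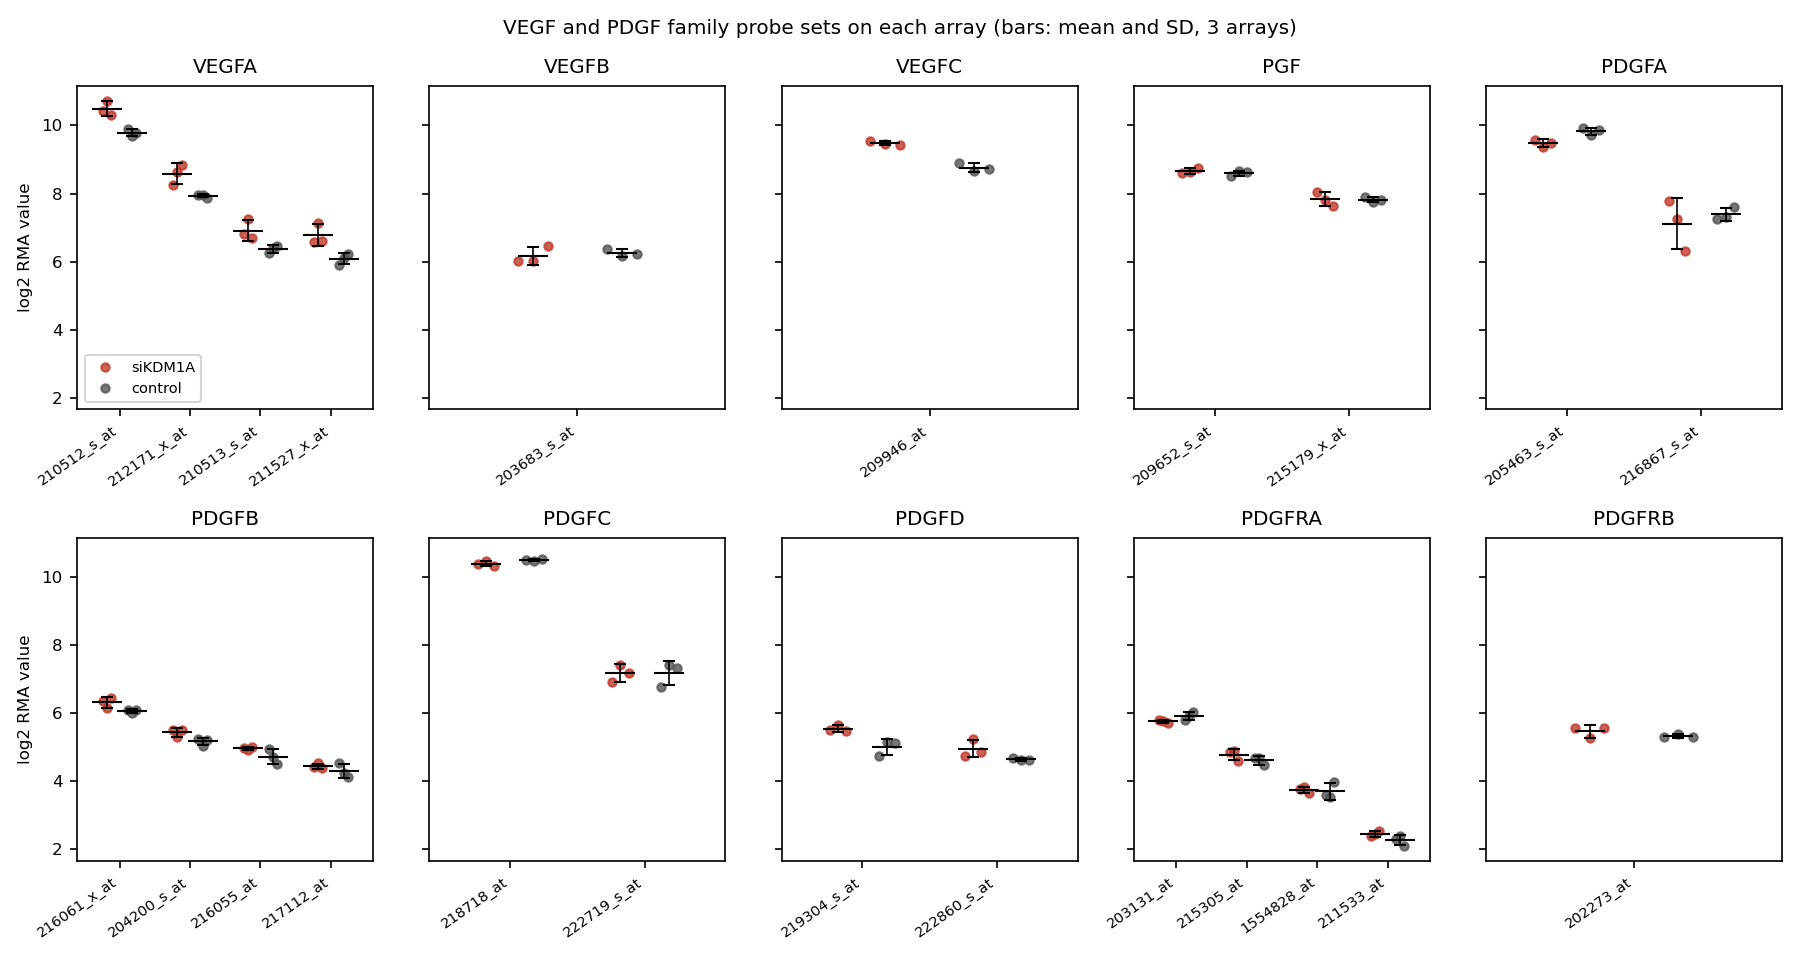
Deposited log2 value (vertical axis) of each of the 23 probe sets (horizontal axis, 1 panel per gene) in the 3 siKDM1A arrays (red) and the 3 control arrays (grey), with the mean and SD of each group. In 10 probe sets all red points lie above all grey ones, among them the 4 VEGFA probe sets and the VEGFC probe set. In 2 all red points lie below, PDGFA 205463_s_at and, by a very small margin, PDGFC 218718_at.

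The levels of PDGFD were higher in siKDM1A cells, but close to the threshold. PDGFD, a ligand of PDGFRB that needs cleavage of its CUB domain, lies on chromosome 11 from 103907189 to 104164147. Its brighter probe set, 219304_s_at, read 5.50, 5.66 and 5.48 in siKDM1A arrays and 4.75, 5.15 and 5.12 in control arrays. All siKDM1A arrays lay above the control arrays, and control array a was the lowest of the 6. Mean levels were 5.55 ± 0.097 in siKDM1A cells and 5.01 ± 0.22 in control cells (SD, n = 3 each), a log2 difference of 0.54 with a standard error of 0.12 and a 95% interval of 0.27 to 0.82. This is 1.46-fold (limma adjusted p = 0.032). These levels lay close to the median of all probe sets, which was 5.09 to 5.16 on the 6 arrays.

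The second PDGFD probe set, 222860_s_at, read 4.75, 5.24 and 4.87 in siKDM1A arrays and 4.69, 4.63 and 4.62 in control arrays. The groups did not overlap, and its difference of 0.31 did not pass (limma adjusted p = 0.22). The mean of both probe sets was higher by 0.43 (limma adjusted p = 0.023 over 19775 gene means). The call of 219304_s_at was lost in each of the 6 fits with 1 array left out (limma adjusted p from 0.051 to 0.094), after cyclic loess scaling (limma adjusted p = 0.054) and in the study's own test (adjusted p = 0.20).

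PDGFA, whose dimer activates PDGFRA, had the most negative difference among the brightest probe sets of the 10 genes. It lies on chromosome 7 from 497258 to 520700. Probe set 205463_s_at read 9.59, 9.36 and 9.49 in siKDM1A arrays and 9.91, 9.72 and 9.87 in control arrays. Every siKDM1A array lay below every control array. The log2 difference was -0.36, with a standard error of 0.097 and a 95% interval of -0.57 to -0.14, and it did not pass over all probe sets (limma adjusted p = 0.068). It passed after median centring (limma adjusted p = 0.046), without dim probe sets (0.039) and with an intensity trend and robust prior (0.029). It did not pass in the other 9 of 12 alternatives, which were cyclic loess (0.15), the study's own test (0.18), the replicate block (0.064) and the 6 fits with 1 array left out (0.077 to 0.24).

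The other PDGFA probe set varied widely in siKDM1A cells. Probe set 216867_s_at read 7.79, 7.25 and 6.32 in siKDM1A arrays and 7.25, 7.32 and 7.59 in control arrays, so siKDM1A array a was the highest and c the lowest of the 6. Its log2 difference was -0.27 with a 95% interval of -0.95 to 0.41 (limma adjusted p = 0.70), and without siKDM1A replicate c it was 0.13. The mean of both PDGFA probe sets differed by -0.31 (limma adjusted p = 0.29 over 19775 gene means).

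PDGFB, which binds both PDGF receptors, lies on chromosome 22 from 39223359 to 39244982. Its brightest probe set, 216061_x_at, read 6.35, 6.15 and 6.45 in siKDM1A arrays and 6.09, 6.00 and 6.09 in control arrays. On 204200_s_at it read 5.52, 5.29 and 5.51 in siKDM1A arrays and 5.24, 5.04 and 5.23 in control arrays. In both probe sets the siKDM1A arrays lay above the control arrays by a small margin. The log2 differences of 0.26 and 0.27 did not pass (limma adjusted p = 0.20 and 0.18), and neither did those of 216055_at and 217112_at, 0.24 and 0.13, whose levels lay below the array median. The mean of the 4 probe sets differed by 0.23 (limma adjusted p = 0.12 over 19775 gene means).

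PDGFC, like PDGFD a ligand with a CUB domain, lies on chromosome 4 from 156760454 to 156971799. Probe set 218718_at read 10.39, 10.46 and 10.33 in siKDM1A arrays and 10.51, 10.46 and 10.51 in control arrays. The siKDM1A arrays lay below the control arrays, but array b of each group gave nearly the same value. The log2 difference was -0.10 with a 95% interval of -0.29 to 0.083 (limma adjusted p = 0.57). Probe set 222719_s_at read 6.91, 7.42 and 7.19 in siKDM1A arrays and 6.77, 7.42 and 7.32 in control arrays, with a difference of 0.0028 and an interval of -0.41 to 0.41.

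The ligands were also set against each other within each array, in 12 pairs of brightest probe sets inside the VEGF and inside the PDGF ligands. These pairs were chosen after the values were seen, and with 3 arrays a group the smallest p that exact permutation can give is 0.10. VEGFA and VEGFC changed by nearly the same amount, with a difference of changes of -0.0083 and a standard error of 0.13 (exact permutation p = 1.0). Pairs that share a gene are not independent, and their differences largely restate the single-gene values above. The difference of changes was 0.80 for VEGFA over VEGFB, 0.64 for VEGFC over PGF, -0.90 for PDGFA against PDGFD and -0.61 for PDGFA against PDGFB (each at the smallest exact permutation p, 0.13 after adjustment over the 12 pairs). PDGFB and PDGFD overlapped (-0.28, exact permutation p = 0.3), as did VEGFB and PGF (-0.16, exact permutation p = 0.4).

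**Figure D2:**
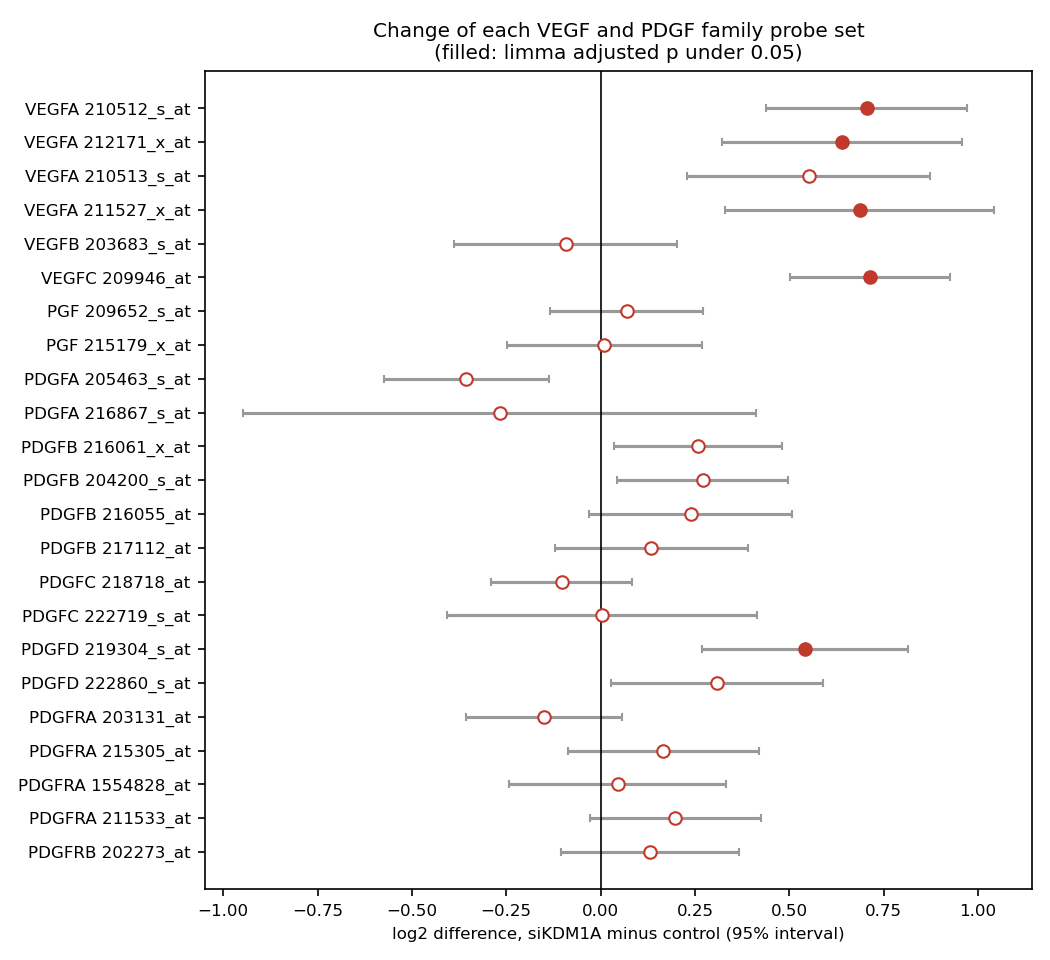
Log2 difference (siKDM1A minus control, horizontal axis) of each of the 23 probe sets (rows) with its 95% interval. Filled points had an adjusted p under 0.05, and these 5 are 3 VEGFA probe sets, VEGFC and PDGFD 219304_s_at. The PDGFA 205463_s_at interval lies wholly below 0, although its adjusted p of 0.068 did not pass.

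The receptors PDGFRA and PDGFRB were not called, and their brightest probe sets lay only a little above the array median of 5.09 to 5.16. PDGFRA, the receptor of glial precursor cells, lies on chromosome 4 from 54229293 to 54298245. Its brightest probe set, 203131_at, read 5.81, 5.77 and 5.72 in siKDM1A arrays and 5.80, 5.91 and 6.04 in control arrays. The groups overlapped, with a log2 difference of -0.15 and a 95% interval of -0.36 to 0.057 (limma adjusted p = 0.44).

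The dimmer PDGFRA probe sets 215305_at, 1554828_at and 211533_at differed by 0.17, 0.045 and 0.20, and none passed. Probe set 211533_at, at 2.46 in siKDM1A cells and 2.26 in control cells, lay below the lower quartile of each array, which was 3.63 to 3.70. The direction of 203131_at and 211533_at differed, and their within-array differences did not overlap between the groups (-0.35, exact permutation p = 0.10, 0.87 after adjustment over the 13 pairs of probe sets of 1 gene). PDGFRB, the receptor of pericytes and fibroblasts, lies on chromosome 5 from 150113839 to 150155845. It read 5.55, 5.26 and 5.58 in siKDM1A arrays and 5.30, 5.39 and 5.31 in control arrays on 202273_at. The groups overlapped, and the log2 difference of 0.13 had a 95% interval of -0.11 to 0.37 (limma adjusted p = 0.57).

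**Figure D3:**
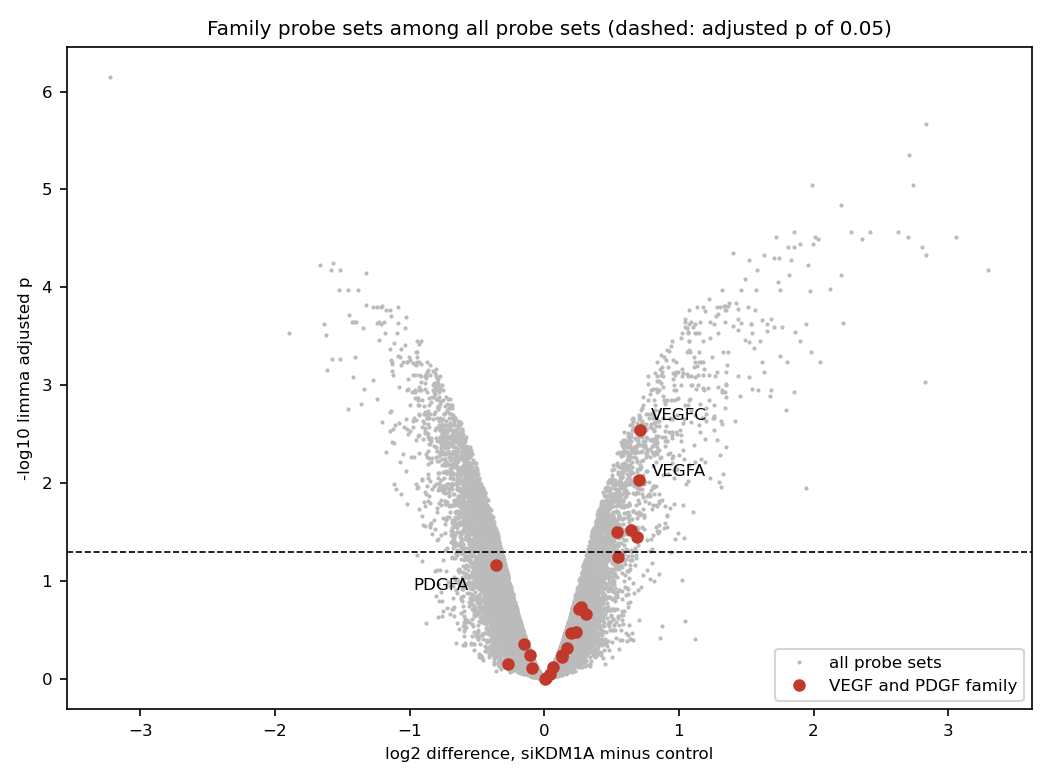
Log2 difference (siKDM1A minus control, horizontal axis) against -log10 of the limma adjusted p (vertical axis) for all 54613 probe sets (grey) and the 23 of the family (red), with an adjusted p of 0.05 dashed. VEGFC and VEGFA lie above the line at a difference of 0.71 each, well inside the range of the grey points, and PDGFA lies just below it.

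Of the 5 VEGF receptors and neuropilins, 1 was called higher, none lower and 4 did not pass. Over all genes, 3.45% were called higher and 5.46% lower. The median log2 difference of the 5 was 0.25, against 0.0069 over all genes. That median is the value of FLT4, which was not called and differed by 0.033 without control replicate c. NRP2, the neuropilin that acts as a co-receptor of VEGFC, read 6.05, 6.27 and 6.33 in siKDM1A arrays and 5.73, 5.67 and 5.72 in control arrays on 225566_at. All siKDM1A arrays lay above the control arrays. The log2 difference was 0.51 with a standard error of 0.097 (limma adjusted p = 0.016), and 2 further NRP2 probe sets, 214632_at and 222877_at, were also higher (limma adjusted p = 0.018 and 0.033), while the other 8 did not pass. The call of 225566_at held only without siKDM1A replicate a or c among the 6 fits with 1 array left out (limma adjusted p from 0.013 to 0.070), and it was lost in the study's own test (adjusted p = 0.10). KDR, the main signalling receptor of VEGFA, lay at 4.23 in siKDM1A cells and 3.97 in control cells, below the array median (limma adjusted p = 0.21). FLT1, FLT4 and NRP1, which encodes the neuropilin that binds VEGFA, differed by -0.023, 0.25 and 0.16 (limma adjusted p = 0.92, 0.52 and 0.52).

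Among the 8 enzymes and cofactors that process these ligands, 1 was called higher and 1 lower (median log2 difference 0.069). The shares over all genes were 3.45% higher and 5.46% lower. PLAU encodes urokinase, a protease that can activate PDGFD. It read 9.08, 8.97 and 8.90 in siKDM1A arrays and 8.18, 8.33 and 8.33 in control arrays on 205479_s_at. The arrays of the groups were well apart. The log2 difference was 0.71 with a standard error of 0.091, or 1.63-fold (limma adjusted p = 0.0026), and it passed in all 12 alternatives, the study's own test included (adjusted p = 0.049). The second PLAU probe set, 211668_s_at, was higher by 0.68 (limma adjusted p = 0.010).

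PLAT encodes tissue plasminogen activator, which can activate PDGFC. It read 7.87, 7.66 and 7.89 in siKDM1A arrays and 8.21, 8.14 and 8.33 in control arrays on 201860_s_at, without overlap. The log2 difference was -0.42 (limma adjusted p = 0.037), and it passed in 1 of the 6 fits with 1 array left out, the one without siKDM1A replicate c (up to 0.17 in the others). It was lost after cyclic loess scaling (limma adjusted p = 0.087) and in the study's own test (adjusted p = 0.15). PCSK5, a proprotein convertase, was above control in every siKDM1A array on 3 probe sets, with differences of 0.35 to 0.47. None passed in the main fit (limma adjusted p from 0.095 to 0.15). Its brightest, 205559_s_at, passed in 1 of 12 alternatives, without siKDM1A replicate c (log2 difference 0.64, limma adjusted p = 0.011). With the mean of the probe sets of a gene, 2 of the enzymes and cofactors were called higher. The convertases FURIN and PCSK7 differed by 0.19 and 0.094. ST14, a protease that can cleave PDGFC, differed by -0.12, and ADAMTS3 and CCBE1, which act together in maturation of VEGFC, by 0.027 and 0.043, all without a call and the last pair at dim levels.

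Of 15 listed signalling proteins used by both receptor families 12 were measured, of which none was called higher and 1 was lower, NCK2, an adaptor of activated PDGF receptors (log2 difference -0.41, limma adjusted p = 0.046, and up to 0.18 with 1 array left out, passing only without siKDM1A replicate a), with a median of -0.10 over the 12. NCK2 also lost its call after cyclic loess scaling (limma adjusted p = 0.088) and in the study's own test (adjusted p = 0.17). Hypoxia-inducible factors are known activators of VEGFA, and of their 8 subunits and oxygen sensors none was called (median 0.057). Of 15 listed hypoxia-inducible genes 14 were measured, of which none was called higher and 3 were lower, against 3.45% higher and 5.46% lower over all genes. The 3 were CA12, a carbonic anhydrase, NDRG1, and KDM3A, a histone demethylase. Their log2 differences were -0.48, -0.63 and -0.34 (limma adjusted p = 0.024, 0.043 and 0.038), and the median of the 14 was -0.020. After cyclic loess scaling none of the 3 passed (limma adjusted p = 0.060, 0.070 and 0.080), and in the study's own test only KDM3A did (adjusted p = 0.039). With the mean of the probe sets of a gene, only 1 hypoxia-inducible gene was called lower. KDM3A lost its call in every fit with 1 array left out, NDRG1 in all such fits except the one without siKDM1A replicate c, and CA12 in all except those without siKDM1A replicate a or control replicate b. What part oxygen sensing had in the higher VEGFA levels was not tested.

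Of 16 other angiogenesis factors and antagonists, 2 were higher and 2 lower, against 3.45% higher and 5.46% lower over all genes. Their median log2 difference was 0.12. EFNB2, an ephrin of arterial endothelium, and SPARC, a matricellular protein that binds PDGF, were higher by 0.50 and 0.44 (limma adjusted p = 0.013 and 0.018). FGF2, basic fibroblast growth factor, had a difference of -0.57 on 204422_s_at (limma adjusted p = 0.0062) and of 0.0091 on its second probe set, 204421_s_at (limma adjusted p = 0.98). TIMP3, a protease inhibitor that blocks binding of VEGFA to KDR, differed by -0.61 on its brightest probe set, 201150_s_at (limma adjusted p = 0.0052), while its other 3 probe sets, with differences of -0.083 to 0.32, did not pass. FGF2 and TIMP3 kept their calls with any 1 array left out, EFNB2 lost its call without control replicate b or c, and SPARC in 4 of the 6 such fits, keeping it without siKDM1A replicate b or c. In the study's own test none of the 4 passed (adjusted p = 0.084 for EFNB2, 0.063 for SPARC, 0.056 for FGF2 and 0.060 for TIMP3). KIT, CSF1R and FLT3, the other receptor tyrosine kinases of the PDGF receptor family, had no mean over the 6 arrays above every array median, and none was called.

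**Figure D4:**
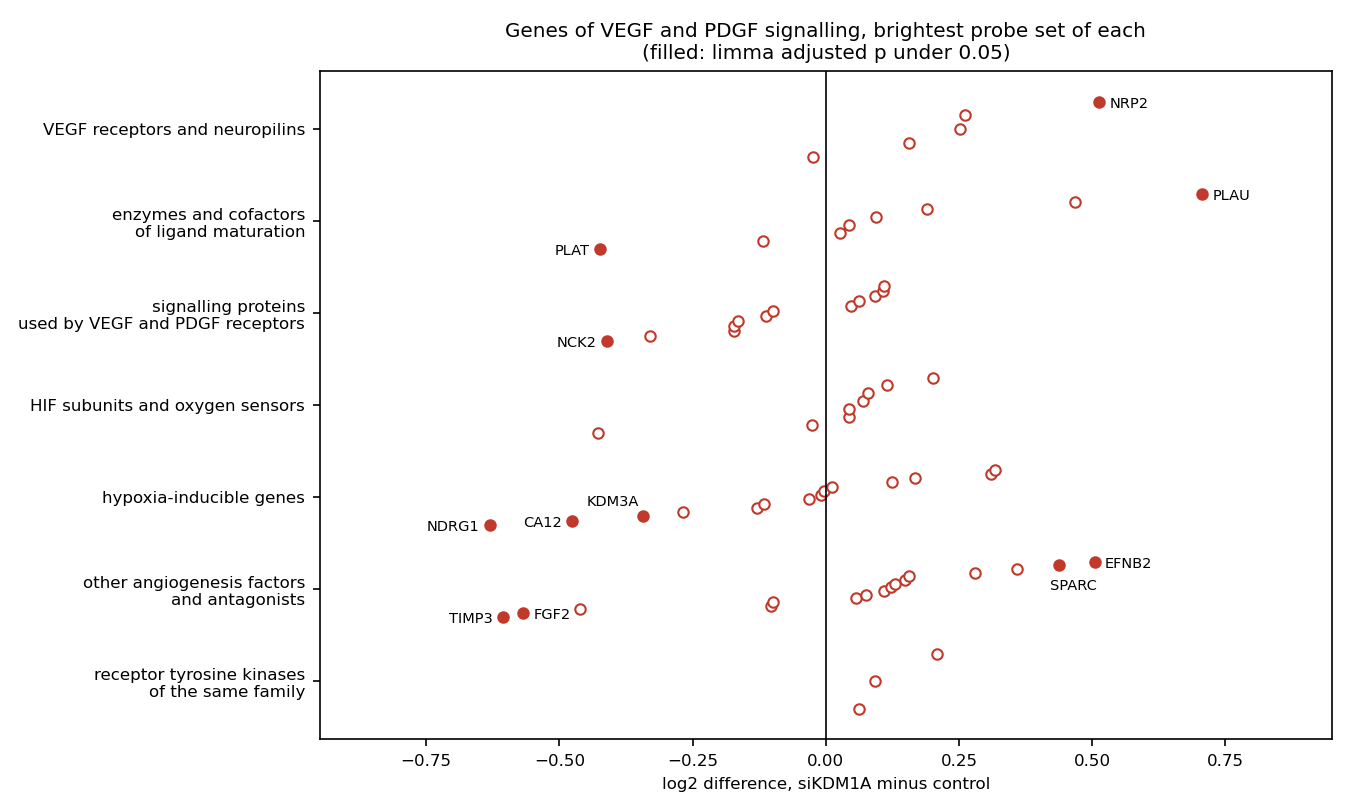
Log2 difference (siKDM1A minus control, horizontal axis) of each measured gene in 7 lists around the VEGF and PDGF pathway (rows), with a gene shown by its brightest probe set. Filled points had an adjusted p under 0.05: NRP2, PLAU, EFNB2 and SPARC are to the right of 0, and PLAT, NCK2, NDRG1, CA12, KDM3A, FGF2 and TIMP3 to the left.

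**Figure D5:**
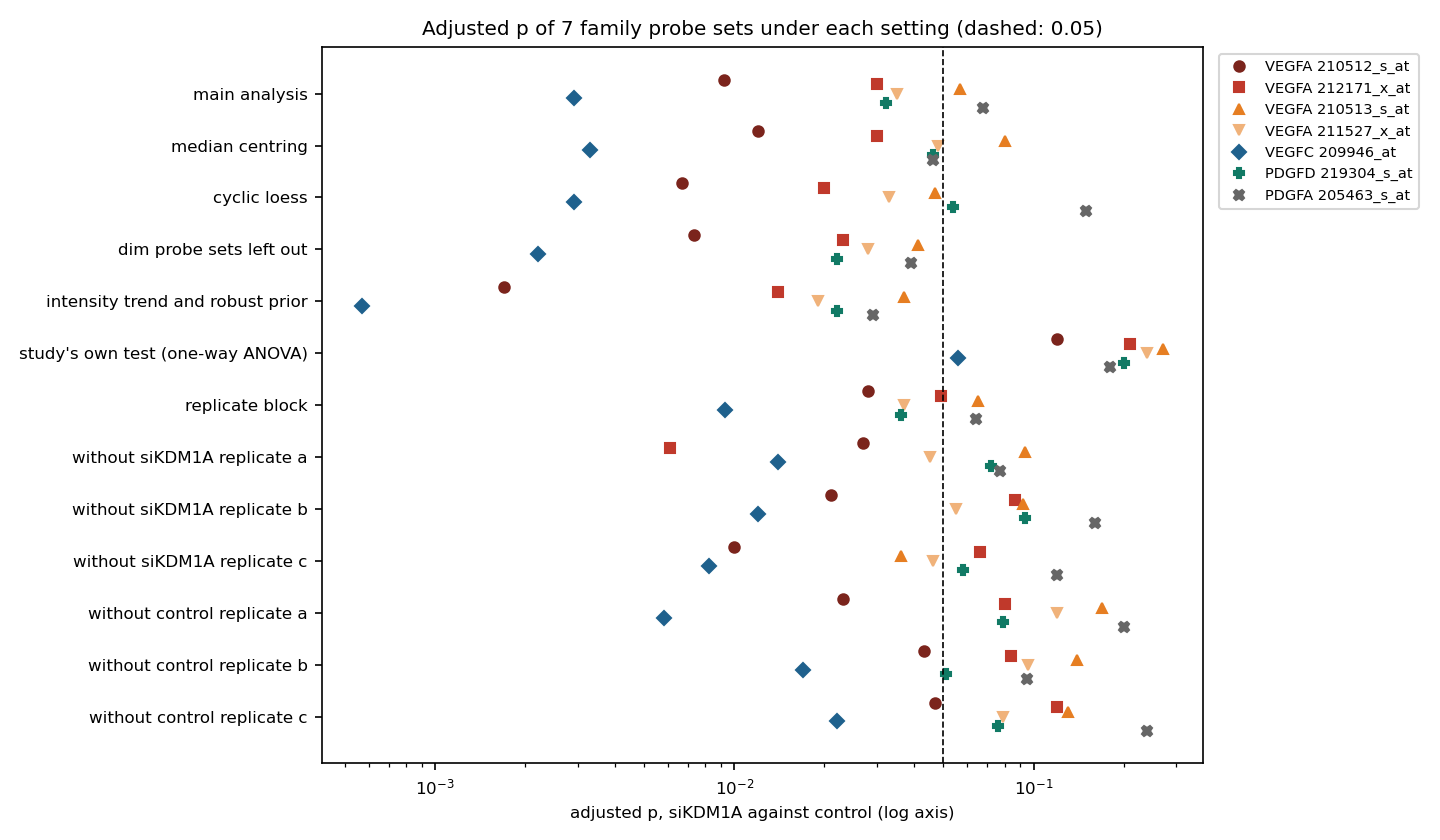
Adjusted p (horizontal log axis, 0.05 dashed) of 7 family probe sets in the main analysis and in 12 alternatives (rows), the study's own test among them. VEGFA 210512_s_at and VEGFC lie left of the line in 11 of 12 alternatives, and PDGFD 219304_s_at in 4 of 12.

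Correlations between arrays were 0.991 to 0.998. Of 8 endothelial markers 1 was called higher, and none of 7 pericyte and smooth muscle markers and none of 5 measured leukocyte markers was called. Over all genes, 3.45% were called higher and 5.46% lower. The summed endothelial log2 levels were 41.99 to 43.28 in siKDM1A arrays and 41.65 to 42.64 in control arrays. The called endothelial marker was PECAM1 on 1559921_at (0.35, limma adjusted p = 0.035), with its other probe sets not called. Of 11 measured medulloblastoma and neural precursor markers, 7 had means above every array median. This also held for 5 of 8 endothelial, 6 of 7 pericyte and smooth muscle and 2 of 5 leukocyte markers. Among the medulloblastoma and neural precursor markers, MAP2 was called higher (log2 difference 1.12), and ZIC1, ZIC2 and SOX2 were called lower (log2 differences -0.39, -0.40 and -0.43). OTX2, at 2.90 in siKDM1A cells and 2.92 in control cells, lay below the lower quartile. The part of these shifts in the results for the VEGF and PDGF genes was not tested.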

How the data were processed

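RNA of 3 siKDM1A and 3 control transfections of ONS-76 cells was hybridized to Affymetrix U133 Plus 2.0 arrays. RMA was run by the authors in Partek's Genomics Suite (no version in the sources used here), and the deposited log2 values cover 54675 probe sets. RMA subtracts background, gives all arrays 1 distribution of probe intensities and summarizes each probe set, so it would hide most of a shift shared by all genes.

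The deposited log2 values were tested with limma 3.58.1 in R 4.3.3 (lmFit and eBayes, no trend, two-sided), and p was adjusted across 54613 probe sets by Benjamini-Hochberg, after 62 Affymetrix controls were left out. Of these, 41091 named 1 gene, 1801 several and 11721 none in the platform annotation. The fit was tested on simulated data, where it called 15 of 50 probe sets changed 1.5-fold and 41 of 50 changed 2-fold. Far fewer probe sets were changed in the simulation than were called in the arrays, which makes the adjusted threshold stricter in the simulation. A change of about 1.5-fold can go uncalled, but how often this happens in the real arrays was not measured. The study's own test was a one-way ANOVA, run here as an alternative beside other scalings, leaving out dim probe sets, a robust prior with an intensity trend, a replicate block, other probe set rules and leaving out each array. Pairs within arrays were compared by exact permutation tests.

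Members and lists were chosen with earlier results of these data known. The naming rule covered every member, KDM1A and KDM5A, all VEGF receptors, neuropilins and maturation enzymes, and at most 4 called genes of each other list. Markers were named by the same lists. The ligand pairs were added after the values were seen. The number of arrays limits the precision, and p-values measure the spread between 3 transfections of 1 line.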

Additional observations from a re-analysis of the deposited data

How the results depend on the processing

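Of 270 refits of the family's probe sets, 232 kept their direction and their side of the threshold, 21 lost a call, 7 gained one and 10 changed sign. The study's one-way ANOVA called 275 probe sets higher and 401 lower, and 0 family probe sets and 0 family genes higher. Main counts were 1193 higher and 2037 lower over all probe sets, and 5 and 0 in the family. With 1 array left out the test called 609 to 1103 probe sets higher and 694 to 1563 lower, and 2 to 4 family probe sets higher. The low ends came without control replicate c, and 698 higher and 1101 lower probe sets were called without control replicate a, 712 and 1022 without control replicate b, and 1253 lower without siKDM1A replicate a. The family count was 2 without siKDM1A replicate b or any 1 control array. After median centring, without dim probe sets and with an intensity trend and robust prior, 1 family probe set and 1 gene, PDGFA 205463_s_at, was called lower. The share of lower calls was 63.1% in the main fit, 70.0% after median centring and 54.8% after cyclic loess, with a median difference over all probe sets of 0.014, -0.014 and 0.0048.

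Sign changes concerned uncalled probe sets with small differences. PGF 215179_x_at was -0.018 and PDGFC 222719_s_at -0.025 after median centring. With 1 array left out these ran from -0.096 to 0.11 and from -0.20 to 0.13, PDGFA 216867_s_at from -0.61 to 0.13 and PDGFRA 1554828_at from -0.040 to 0.19. ADAMTS3 214913_at was -0.00093 after median centring and -0.012 after cyclic loess. With 1 array left out it ran from -0.0082 to 0.062, FLT1 232809_s_at from -0.066 to 0.030, FURIN 201945_at from -0.0036 to 0.34 and CCBE1 243805_at from -0.020 to 0.15.

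With 3 arrays a group, whether the replicate letters pair the samples could not be settled. Deviations from the group means correlated at 0.11 for a, 0.23 for b and -0.13 for c, and 2 of 3 siKDM1A arrays correlated best with their own letter. With the replicate block the test called 1080 probe sets higher and 1639 lower, and 5 family probe sets and 3 family genes higher, and changed no family call, while of the genes around the pathway NCK2, NDRG1 and KDM3A lost theirs (limma adjusted p = 0.071, 0.090 and 0.076). With gene means 3 family genes were higher. Leaving out probe sets ending in _x_at and _s_at, where a gene had another kind, also left 3 higher, but it could not change these calls. VEGFA and PDGFD have no probe set of another kind, and VEGFC has only 209946_at. The cause of the lost calls was not tested.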
